A study of Mus musculus with 6 samples.

Results

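The genes described are 10 members of the mouse Cyp2c family of cytochrome P450 enzymes, namely Cyp2c29, Cyp2c37, Cyp2c38, Cyp2c40, Cyp2c44, Cyp2c50, Cyp2c54, Cyp2c67, Cyp2c69 and Cyp2c70, of 16 Cyp2c symbols and 24411 genes in the table. They were chosen by symbol with the counts and the genotype differences of these same libraries already known, so the values by genotype are given as a description. No p-value is given for a chosen gene. Where one is said to be called or not called in a fit over all genes, that too is description and not support. Liver RNA was sequenced from 6 mice aged 19 postnatal days, 3 p62+/+ and 3 p62S351E/+. The p62S351E/+ mice were heterozygous for a knock-in that changes a serine of p62 (Sqstm1) to glutamate and so mimics its phosphorylation, which activates the transcription factor NRF2. The allele was made by prime editing in embryonic stem cells, and heterozygotes came from the sperm of a single chimeric male. They were growth retarded and malnourished by the account of the study, and both genotypes otherwise carried no stated allele or treatment.

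Cyp2c enzymes sit in the endoplasmic reticulum of hepatocytes and take electrons from cytochrome P450 reductase to oxidize drugs, steroids and fatty acids. Several of them are epoxygenases that turn arachidonic acid into epoxyeicosatrienoic acids, which epoxide hydrolases then open. Their genes arose by repeated tandem duplication, so that neighbours can be nearly identical, and their transcription in liver is known to depend on HNF4A, on the xenobiotic receptors CAR and PXR, and on the sex-dependent pattern of growth hormone. Cyp2c40 and Cyp2c69 are known as genes with higher levels in livers of adult females than of males.

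The libraries held between 8696712 and 10341622 counts, of which 3 dominant genes (Rn45s, Lars2 and Mir6236) took all but 134911 to 315436. Summed counts of 9 measured hepatocyte markers ran from 10927 to 25356, so that hepatocyte RNA was present in every library. Summed counts of 10 brain markers were 2254, 2403 and 2092 in p62+/+ mice 1 to 3 and 2268 in p62S351E/+ mouse 3, but 29 and 9 in p62S351E/+ mice 1 and 2. Xist, the RNA of the inactive X chromosome, had 70.8, 1505 and 1071 counts in p62+/+ livers and 1, 0 and 1537 in p62S351E/+ livers, while the labels give no sex. Because p62S351E/+ mouse 3 resembled p62+/+ mice 2 and 3 in both respects, its values are given beside each main result. Gstm1, a target of NRF2 used to check the labels, was higher in p62S351E/+ mice (log2 fold change 3.59, adjusted p = 0.00051, edgeR), and Sqstm1 itself had a log2 fold change of 0.30 (adjusted p = 0.498, edgeR).

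In GRCm38 (mm10), 9 of the 10 genes lay within 917.9 kb on chromosome 19 (chr19:39269405-40187333), and each had 9 exons. The exception to the name of a cluster was Cyp2c44, called Cyp2c23 in the annotation, which lay 3.82 Mb away at chr19:44005022-44029208. Coding sequences sorted the genes into families. Cyp2c40, Cyp2c67, Cyp2c69 and the unchosen neighbour Cyp2c68 were 96.5% to 98.1% identical, and Cyp2c37, Cyp2c50 and Cyp2c54 were 95.1% to 96.1% identical. The outlying Cyp2c44 was 65.8% identical to Cyp2c40, and Cyp2c70 was 69.9% identical to Cyp2c29.

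The reads were 75 bases long, so every run of 75 bases in a chosen transcript of each Cyp2c gene was compared with all annotated mouse transcripts. Matches in another gene were found only within the Cyp2c genes. For Cyp2c40, 57.1% of the 75-base windows also occurred in Cyp2c67, Cyp2c68 or Cyp2c69, and the share was 43.2% for Cyp2c69, 36% for Cyp2c67 and 28.5% for Cyp2c68. It was 17.8% for Cyp2c50, 14.1% for Cyp2c54 and 13.8% for Cyp2c37, all of it shared within that trio. Cyp2c38 shared 1.86% with Cyp2c39, Cyp2c29 shared 0.527% with the pseudogene Cyp2c53-ps, and Cyp2c44 and Cyp2c70 shared none. The end of the coding sequence shows how few bases can tell the transcripts of the first family apart. Only 15 aligned coding bases set Cyp2c69 apart from all 3 relatives, and the run of 75 bases that holds the most of them is printed here, from base 1387 to 1461 of the coding sequence of Cyp2c69, with capitals at the 5 positions where the 4 genes are not all alike.
Cyp2c69: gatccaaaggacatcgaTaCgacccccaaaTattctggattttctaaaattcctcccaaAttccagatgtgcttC
Cyp2c68: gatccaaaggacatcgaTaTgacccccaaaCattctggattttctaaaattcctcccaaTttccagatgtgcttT
Cyp2c40: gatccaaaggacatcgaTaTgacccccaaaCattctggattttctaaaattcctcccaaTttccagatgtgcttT
Cyp2c67: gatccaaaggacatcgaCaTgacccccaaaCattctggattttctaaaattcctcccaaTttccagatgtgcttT
In this run 4 bases were particular to Cyp2c69, and Cyp2c68 and Cyp2c40 had the same letters throughout, so a read of it can be given to Cyp2c69 but not to Cyp2c68 rather than Cyp2c40.

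Counts were estimated by a program that divides a read among the genes it matches, which leaves counts that are not whole. Of the 60 values of the 10 genes, 35 (58.3%) differed from a whole number by more than 0.005, against 6.45% of nonzero values over all genes. Cyp2c37, Cyp2c40, Cyp2c50, Cyp2c54 and Cyp2c67 had such a count in 6 of 6 libraries and Cyp2c69 in 5 of 6, whereas Cyp2c29, Cyp2c38, Cyp2c44 and Cyp2c70 had whole counts in every library. The genes with divided counts were thus those with the most shared windows. The sums were whole to within 0.01 inside each family, at 280, 237, 220, 316.01, 400.01 and 620 counts for Cyp2c37, Cyp2c50 and Cyp2c54, so that the parts of divided counts added up within a family.

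**Figure D1:**
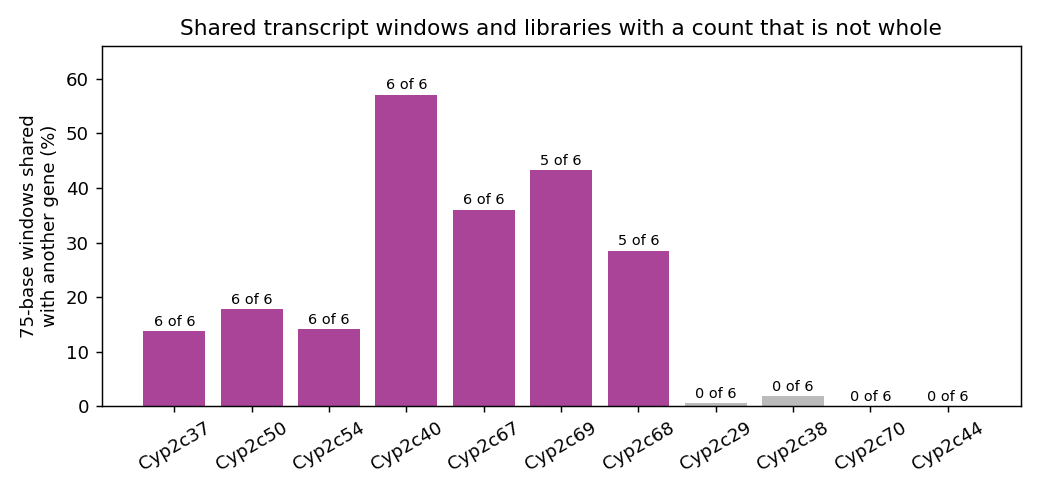
Bars give the percent of 75-base windows of each transcript that also occur in another Cyp2c gene, and the label above each bar gives the libraries, of 6, in which the count was not whole. Purple bars, from 13.8% for Cyp2c37 to 57.1% for Cyp2c40, have divided counts, and grey bars, at most 1.86%, have none.

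Counts were scaled by the TMM method to the mean library, and the resulting normalized counts are used for values of single mice. A gene was called where edgeR's quasi-likelihood test across 5945 genes gave a Benjamini-Hochberg adjusted p under 0.05 and a log2 fold change above 1 or below -1, the log2 ratio of p62S351E/+ to p62+/+. Among all genes tested, 50 were higher (0.841%) and 5 lower (0.0841%). Cyp2c38, with 1 to 3 counts in every library, and Cyp2c67 were too low to enter the fit. Of the 8 genes that entered it, 1 was higher (Cyp2c37) and 1 lower (Cyp2c69), counts from which nothing is read since that contrast was known when the genes were chosen. The genotypes did not overlap for 3 of the 8 with p62S351E/+ mice above (12.0% of all genes tested) and for 2 with p62S351E/+ mice below (14.7%). The median log2 fold change of the 8 was 0.42, with 4 positive, beside -0.03 over all genes tested. With Xist as a covariate it was 0.11, beside -0.06 over all genes. The 9 hepatocyte markers tested had a median log2 fold change of 0.47, with 8 positive, close to that of the Cyp2c genes. The part of hepatocyte RNA content in the Cyp2c values was not tested. Without p62S351E/+ mouse 3, 9 chosen genes entered the fit, so the set was not the same. Their median was 1.03, and 4 were higher and 2 lower, where 5.21% and 15.3% of all genes were called. In whole liver, fewer cells that express a gene and less RNA in each cell cannot be told apart.

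**Figure D2:**
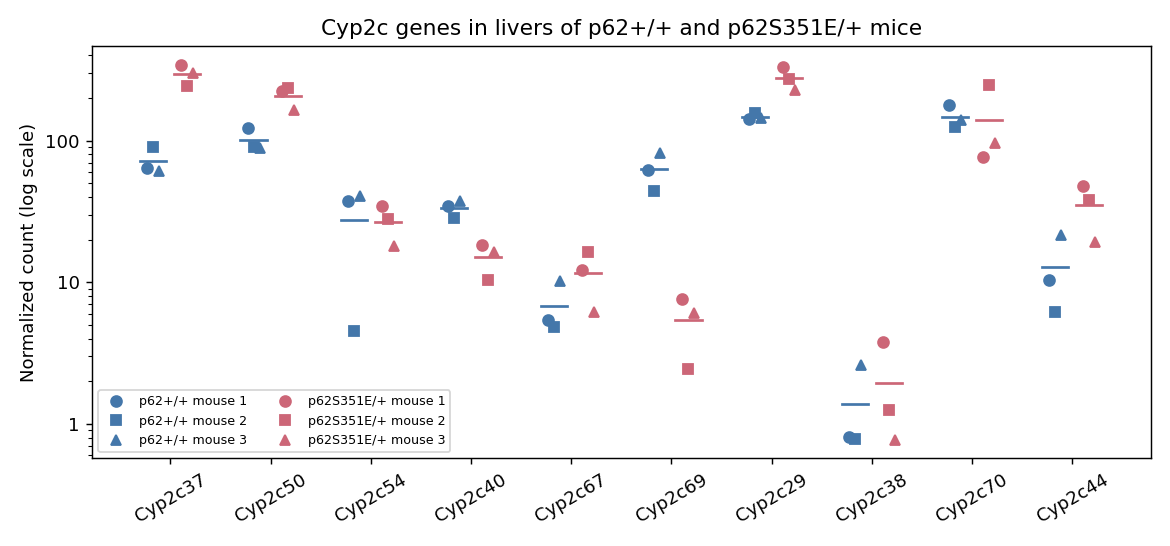
Points give normalized counts on a log scale for each gene in 3 p62+/+ (blue) and 3 p62S351E/+ (red) mice, and bars the means. The genotypes are separate for Cyp2c37, Cyp2c50 and Cyp2c29, with p62S351E/+ mice above, and for Cyp2c40 and Cyp2c69, with p62S351E/+ mice below.

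Cyp2c69 fell in p62S351E/+ livers. The p62+/+ livers gave 77.75, 56.8 and 94.41 counts and the p62S351E/+ livers 4, 1.94 and 7.83. After scaling these were 62.4, 44.1 and 81.5 against 7.62, 2.44 and 6.07 normalized counts. All p62S351E/+ mice thus lay far below the lowest p62+/+ mouse, and p62S351E/+ mouse 3, with brain markers and Xist near the levels of p62+/+ mice 2 and 3, was as low as the other two. The log2 fold change was -3.52 (SE 0.40, n = 3 each), and it ranged from -3.73 to -3.18 over the alternatives that tested the gene, with -3.39 where Xist was a covariate. Xist alone does not settle the sex of each library. The Y-linked Ddx3y had 30, 8 and 6 counts in p62+/+ and 21, 33 and 7 in p62S351E/+ livers, so it was also present where Xist was high. Uty had 18, 1 and 5 against 7, 18 and 3 counts. Kdm5d had 18, 0 and 4 against 7, 10 and 3, and Eif2s3y had 11, 3 and 6 against 9, 11 and 1. Within p62+/+ mice each of these Y-linked genes was highest in mouse 1, and within p62S351E/+ mice lowest in mouse 3, opposite to Xist. Whether the genotypes had the same make-up by sex was not tested.

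Cyp2c40, its closest relative in the promoter, was also lower. It had 34.3, 28.5 and 37.4 normalized counts in p62+/+ livers and 18.3, 10.4 and 16.4 in p62S351E/+ livers, with no overlap. The log2 fold change was -1.15 (SE 0.29), and the gene was not called. Cyp2c40 shared 565 of its windows with Cyp2c69, more than with either of the other relatives, so the separation of these values depends on how reads were divided. Cyp2c67 had 6.71, 6.22 and 11.78 counts in p62+/+ livers and 6.43, 13.07 and 7.94 in p62S351E/+ livers, and after scaling the genotypes overlapped.

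Cyp2c68, which was not among the chosen genes, had values on the other side from Cyp2c69 and Cyp2c40. It had normalized counts of 74.4, 48.3 and 67.8 in the p62+/+ group, against 110.4, 91.6 and 79.0 in the p62S351E/+ group. The genotypes did not overlap, but the log2 fold change of 0.56 (SE 0.24) did not pass the test (adjusted p = 0.34, edgeR). The family as a whole had 176.6, 125.8 and 196.9 summed normalized counts in p62+/+ livers and 148.5, 120.9 and 107.7 in p62S351E/+ livers, which overlapped, and its summed log2 fold change was -0.41 (SE 0.24).

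The make-up of the family therefore differed more than its sum. Cyp2c69 took 35.3% (95% Wilson interval 29.4 to 42.0), 35.1% (28.3 to 42.8) and 41.4% (35.0 to 47.7) of the family's counts in p62+/+ mice. In p62S351E/+ mice it took 5.13% (2.01 to 12.5), 2.02% (0.573 to 7.28) and 5.63% (2.94 to 10.9). These intervals cover counting error within each library only, and neither the division of reads nor the spread between mice is in them. Nothing is read from their separation by genotype, since that difference was known when the genes were chosen. The mean share of Cyp2c68 was 38.3% in p62+/+ and 74.5% in p62S351E/+ mice, and that of Cyp2c67 was 4.02% and 9.19%. A share within a family does not depend on the scaling of the libraries.

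**Figure D3:**
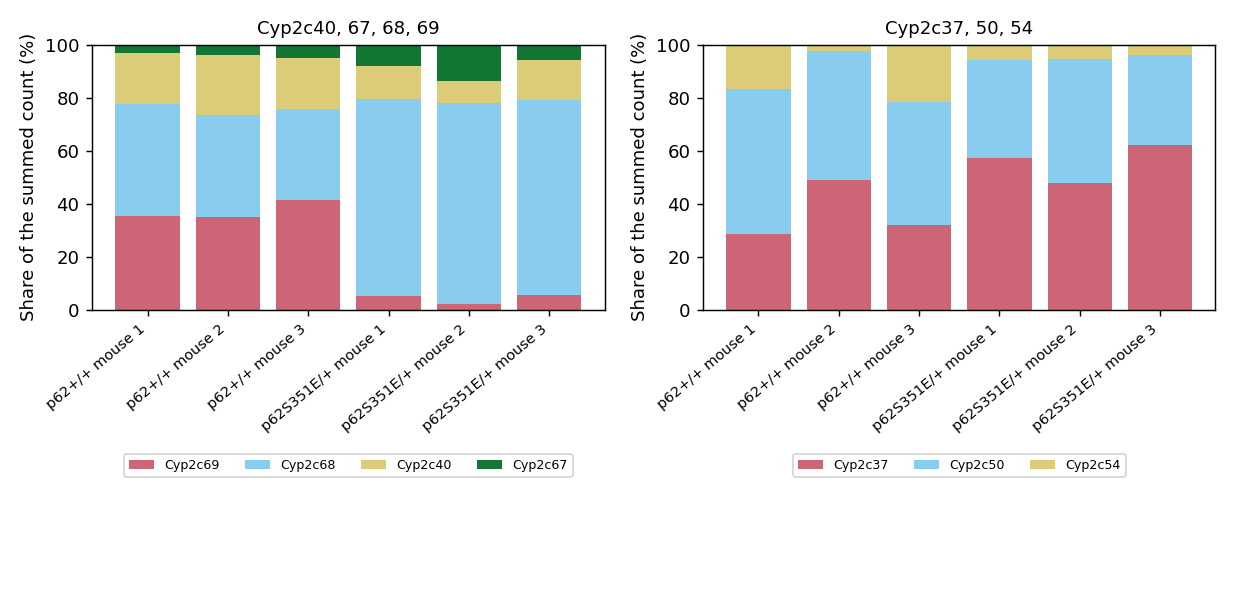
Stacked bars give the percent of each family's summed count that each gene took, for every mouse, with the family of Cyp2c69 on the left and that of Cyp2c37 on the right. Cyp2c69 takes 35.1% to 41.4% in p62+/+ and 2.02% to 5.63% in p62S351E/+ mice, while p62+/+ mouse 2 stands apart on the right by its small share of Cyp2c54.

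Cyp2c37, an epoxygenase that also hydroxylates arachidonic acid, rose in p62S351E/+ livers. The p62+/+ livers gave 64.3, 89.7 and 60.7 normalized counts, and the p62S351E/+ livers 343.7, 241.4 and 297.9. Every p62S351E/+ mouse lay well above the highest p62+/+ mouse, mouse 3 included. The log2 fold change was 2.04 (SE 0.25), and it was 1.97 without p62+/+ mouse 1 and 1.94 without p62+/+ mouse 3, fits in which the gene was no longer called.

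Cyp2c50, another epoxygenase of the trio, also had higher values in p62S351E/+ livers. It had 122.7, 89.7 and 88.4 normalized counts in p62+/+ livers and 223.8, 234.5 and 164.4 in p62S351E/+ livers, with no overlap and a log2 fold change of 1.05 (SE 0.24). It was not called here, but was with DESeq2 and limma-voom. Cyp2c54 had 37.7, 4.56 and 40.9 normalized counts in p62+/+ livers and 34.3, 28.0 and 17.9 in p62S351E/+ livers, so that p62+/+ mouse 2 was the lowest of all and the genotypes overlapped. Its log2 fold change of -0.07 (SE 0.72) took both signs over the alternatives, from -0.56 without p62+/+ mouse 2 to 0.34 with limma-voom.

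In p62+/+ mouse 2, Cyp2c54 took 2.48% of the trio's counts (95% Wilson interval 1.17 to 5.41), against 16.8% (12.9 to 21.6) and 21.5% (16.5 to 27.2) in the other p62+/+ mice. The same mouse had the highest Cyp2c37 of its genotype. The sum of the trio set aside how reads were divided within it, and came to 224.7, 184.0 and 190.0 normalized counts in p62+/+ livers and 601.8, 504.0 and 480.3 in p62S351E/+ livers. Here p62+/+ mouse 2 no longer stood apart. The sum differed by a log2 fold change of 1.40 (SE 0.21), with no overlap.

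The remaining genes had whole counts and few or no shared windows, so that their values owe little to the division of reads. Cyp2c29, an epoxygenase and one of the most abundant members, had 142.0, 156.8 and 144.2 normalized counts in p62+/+ livers and 333.2, 273.4 and 229.3 in p62S351E/+ livers. The genotypes did not overlap, the log2 fold change was 0.91 (SE 0.22), and the gene was not called. Cyp2c44, an epoxygenase known from kidney and liver, had 10.4, 6.21 and 21.6 against 47.6, 37.8 and 19.4 normalized counts. Here p62S351E/+ mouse 3 fell inside the range of p62+/+ mice, and the log2 fold change was 1.43 (SE 0.50). It was 2.04 without p62+/+ mouse 3 and 0.94 with Xist as a covariate, and Cyp2c44 was not called in either fit, but was without p62S351E/+ mouse 3 (1.74).

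Cyp2c70, the enzyme that makes muricholic acids in mouse bile acid synthesis, varied most among p62S351E/+ mice. The normalized counts of p62+/+ livers were 179.8, 124.2 and 139.1, and those of p62S351E/+ livers were 76.2, 245.7 and 96.8, which lay on both sides of the p62+/+ range. The log2 fold change of -0.08 (SE 0.43) ran from -0.76 without p62S351E/+ mouse 2 to 0.22 without p62S351E/+ mouse 1. Cyp2c38 had 1, 1 and 3 counts in p62+/+ and 2, 1 and 1 in p62S351E/+ mice, at or under a floor of 3 counts, and no fold is given.

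**Figure D4:**
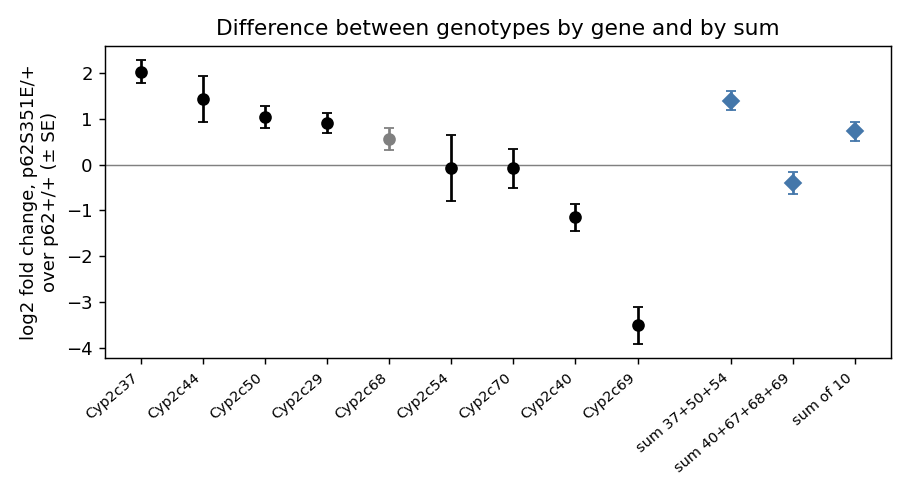
Points give log2 fold changes of p62S351E/+ over p62+/+ mice with standard errors (n = 3 each) for the 8 chosen genes fitted (black), Cyp2c68 (grey) and 3 sums (blue diamonds). Single genes run from -3.52 for Cyp2c69 to 2.04 for Cyp2c37, whereas the sums of the families lie at -0.41 and 1.40.

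Levels were compared between the chosen genes as normalized counts per kb of transcript. In p62+/+ mice Cyp2c70 (86.0 ± 16.8, SD, n = 3) and Cyp2c29 (82.8 ± 4.47) came first and did not differ beyond their spread. Cyp2c50 (55.3 ± 10.7) followed, then Cyp2c37 (39.2 ± 8.67) and Cyp2c69 (38.1 ± 11.4), which were alike within their spread. Cyp2c40 had 18.6 ± 2.51 and Cyp2c54 15.5 ± 11.3, again within their spread, and Cyp2c44 (6.65 ± 4.15), Cyp2c67 (3.92 ± 1.70) and Cyp2c38 (0.484 ± 0.363) came last.

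In p62S351E/+ mice the order began with Cyp2c37 (161 ± 28.1) and Cyp2c29 (156 ± 29.3), which did not differ beyond their spread. Cyp2c50 (115 ± 20.8) and Cyp2c70 (81.3 ± 53.9) followed. Cyp2c44 (18.2 ± 7.48), Cyp2c54 (15.0 ± 4.64), Cyp2c40 (8.33 ± 2.29) and Cyp2c67 (6.71 ± 2.99) came next, and Cyp2c69, at 3.27 ± 1.61, had a mean below all but Cyp2c38 (0.679 ± 0.568), though it overlapped Cyp2c67 within their spread. Cyp2c69 had thus gone from the level of Cyp2c37 to near the foot of the family.

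The 10 genes together had 659.9, 549.5 and 626.7 normalized counts in p62+/+ livers and 1101, 1091 and 855.2 in p62S351E/+ livers. The genotypes did not overlap, and p62S351E/+ mouse 3 was the lowest of its group but above all p62+/+ mice. The log2 fold change of the sum was 0.73 (SE 0.21), and 0.71 (SE 0.21) with all 16 symbols. Both lay within the range of single hepatocyte markers, from -0.04 for Apoa1 to 1.10 for Apob. Of all Cyp2c counts, the trio of Cyp2c37, Cyp2c50 and Cyp2c54 took a mean of 29.4% in p62+/+ and 47.8% in p62S351E/+ mice. The family of Cyp2c69 took 24.4% and 11.3%, and Cyp2c69 alone 9.16% and 0.494%. The mean share of Cyp2c70 was 21.6% and 12.5%, but the genotypes overlapped, since p62S351E/+ mouse 2 had 20.7% (95% Wilson interval 18.3 to 23.5) and p62+/+ mouse 3 had 20.0% (17.4 to 22.9).

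**Figure D5:**
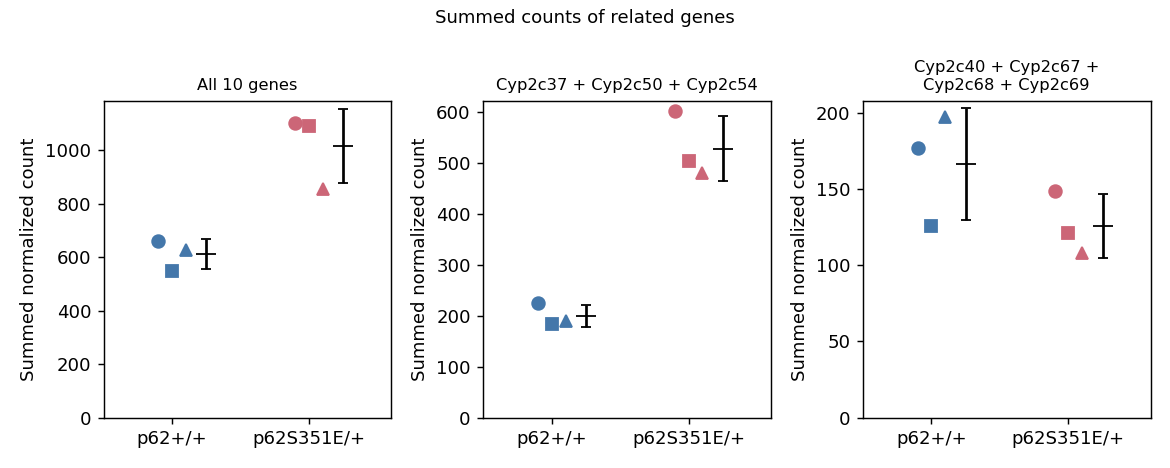
Points give summed normalized counts of each mouse (circle, square and triangle for mice 1, 2 and 3) for the 10 genes, the trio and the family of Cyp2c69, with the mean and SD (n = 3) beside them. The genotypes are apart in the first panel and in the second, where p62+/+ mice lie at 184.0 to 224.7 and p62S351E/+ mice at 480.3 to 601.8, and overlap in the third.

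Of the unchosen Cyp2c genes, Cyp2c68 had 36.8 ± 7.88 normalized counts per kb in p62+/+ and 54.3 ± 9.17 in p62S351E/+ mice (SD, n = 3). The rest were low. Cyp2c39 had 2, 1 and 1 counts in p62+/+ and 0, 1 and 1 in p62S351E/+ mice, Cyp2c55 had 2, 6 and 1 against 1, 0 and 0, and Cyp2c65, Cyp2c66 and Cyp2c53-ps had 0 in every library.

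Promoters are shown because relatives whose values lay on different sides have nearly the same sequence upstream, though those values depend on how reads were divided. Of the genes printed below only Cyp2c69 and Cyp2c37 were called, and Cyp2c40, Cyp2c68 and Cyp2c50 were not. RefSeq sequences of GRCm38.p6, from 250 bases before to 50 bases after the annotated start, matched 8 of the 10 genes, all but Cyp2c44 and Cyp2c54. The following are Cyp2c69 (chr19:39886720-39887019, minus strand) and Cyp2c40 (chr19:39812765-39813064, minus strand), which were lower, Cyp2c68 (chr19:39741052-39741351, minus strand), which was not, and Cyp2c37 (chr19:39992174-39992473, plus strand) and Cyp2c50 (chr19:40089429-40089728, plus strand), which were higher. Capitals mark CAAAGTCCA, a binding sequence known for HNF4A, or CAAAGTCTA, the same with T as its eighth base, on the printed strand.
Cyp2c69: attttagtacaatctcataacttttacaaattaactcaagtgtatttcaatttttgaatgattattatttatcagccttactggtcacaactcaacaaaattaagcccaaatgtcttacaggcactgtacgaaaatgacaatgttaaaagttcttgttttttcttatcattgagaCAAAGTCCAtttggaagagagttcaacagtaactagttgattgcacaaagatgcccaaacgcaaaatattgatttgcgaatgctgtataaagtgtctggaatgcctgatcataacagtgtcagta
Cyp2c40: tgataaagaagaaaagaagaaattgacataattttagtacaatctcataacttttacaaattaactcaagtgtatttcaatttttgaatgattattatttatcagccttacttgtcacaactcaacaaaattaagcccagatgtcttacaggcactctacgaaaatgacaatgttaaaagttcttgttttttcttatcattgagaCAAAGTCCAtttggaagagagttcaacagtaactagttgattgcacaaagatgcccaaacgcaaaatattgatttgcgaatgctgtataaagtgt
Cyp2c68: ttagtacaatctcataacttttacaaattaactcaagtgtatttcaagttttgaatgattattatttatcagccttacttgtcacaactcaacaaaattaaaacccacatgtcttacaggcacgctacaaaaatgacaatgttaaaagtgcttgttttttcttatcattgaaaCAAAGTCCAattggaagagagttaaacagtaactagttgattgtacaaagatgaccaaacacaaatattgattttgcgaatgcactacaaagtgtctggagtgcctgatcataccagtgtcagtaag
Cyp2c37: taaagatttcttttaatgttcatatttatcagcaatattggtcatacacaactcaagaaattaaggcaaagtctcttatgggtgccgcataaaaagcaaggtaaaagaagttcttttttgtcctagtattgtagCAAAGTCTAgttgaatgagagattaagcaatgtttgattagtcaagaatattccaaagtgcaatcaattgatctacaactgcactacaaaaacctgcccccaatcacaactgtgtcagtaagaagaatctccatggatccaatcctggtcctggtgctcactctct
Cyp2c50: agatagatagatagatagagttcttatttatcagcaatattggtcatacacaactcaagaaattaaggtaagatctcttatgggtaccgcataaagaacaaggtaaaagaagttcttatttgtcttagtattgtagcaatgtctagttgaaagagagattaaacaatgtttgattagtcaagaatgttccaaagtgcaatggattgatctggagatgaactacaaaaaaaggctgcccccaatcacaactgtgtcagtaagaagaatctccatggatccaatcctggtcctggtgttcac
Over aligned bases the promoter of Cyp2c69 was 98.9% identical to that of Cyp2c40 and 93.6% identical to that of Cyp2c68. The promoters of Cyp2c37 and Cyp2c50 were 89.5% identical to each other, and Cyp2c69 and Cyp2c37 were 73.2% identical.

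CAAAGTCCA, read on both strands, occurred in 4 of the 8 promoters (Cyp2c40, Cyp2c67, Cyp2c69 and Cyp2c70), and in 0.475% of 32851 mouse promoters of the same length. CAAAGTCTA occurred in 2 of 8 (Cyp2c29 and Cyp2c37) and in 0.24% of all. The motif was picked after the sequences had been seen, near-copies of one promoter are not independent, and Cyp2c68 had it too. AGGTCA, the half-site of many nuclear receptors, occurred in 2 of 8 (Cyp2c29 and Cyp2c70) and in 16.3% of all. TGACNNNGC, the core of the element bound by NRF2, was in 12.4% of all promoters and TTCNNNGAA, bound by STAT5, in 8.3%, and neither was in these 8 windows, which says only that the letters are not there.

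Among CYP2 genes outside the Cyp2c and Cyp2j subfamilies, which oxidize drugs and steroids, differences were mostly positive. Of 13 tested, 2 rose, 0 fell, and 12 had a positive log2 fold change, with a median of 0.92. Over all genes tested 0.841% were higher and 0.0841% lower, and the median was -0.03. The 9 hepatocyte markers tested had a median of 0.47, with 8 positive, and the part of hepatocyte RNA content in the CYP2 values was not tested. Cyp2a5, which oxidizes coumarin and is known as a target of NRF2, rose from 94.3 ± 45.0 to 850.7 ± 66.9 normalized counts (SD, n = 3; log2 fold change 3.18, SE 0.39, adjusted p = 0.00891, edgeR). Cyp2d26 rose by a log2 fold change of 1.26 (SE 0.22, adjusted p = 0.0456, edgeR). Cyp2e1, the most abundant, had 990.4 ± 65.2 and 1077 ± 232 normalized counts (adjusted p = 0.815, edgeR).

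Of 9 tested genes of arachidonic acid supply and epoxide metabolism (Cyp2j5, Cyp2j6, Cyp2j9, Ephx1, Ephx2, Pla2g6, Fads1, Fads2 and Acsl4), 1 rose and 0 fell, with a median log2 fold change of 0.14. Ephx1, the microsomal epoxide hydrolase, had 34, 21 and 23 counts in p62+/+ and 62, 121 and 118 in p62S351E/+ mice, and its log2 fold change was 2.50 (SE 0.29, adjusted p = 0.00728, edgeR). Cyp2j5, another epoxygenase, differed by 0.14 (adjusted p = 0.874, edgeR), Cyp2j6 by 0.27 and Cyp2j9 by -0.59 (adjusted p = 0.734 and 0.549, edgeR), and Ephx2, the soluble hydrolase, by 0.74 (adjusted p = 0.309, edgeR). Of 7 tested genes that serve P450 enzymes with electrons, heme or binding partners none was called, 3 were positive, and the median log2 fold change was -0.03. The positive ones were Por, the reductase, at 0.68 (adjusted p = 0.234, edgeR), Cyb5a at 1.03 (adjusted p = 0.207) and Pgrmc1 at 0.84 (adjusted p = 0.242). The others were Cyb5b at -0.03, Cyb5r3 at -0.04, Alas1, which starts heme synthesis, at -0.30, and Pgrmc2 at -0.44 (adjusted p from 0.612 to 0.964, edgeR).

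Of 17 tested regulators of Cyp2c genes none was called, 11 were positive, and the median log2 fold change was 0.12. Nr1i3, which encodes CAR, had 16.3, 49.9 and 50.9 normalized counts in p62+/+ and 135.8, 118.4 and 109.3 in p62S351E/+ mice. The genotypes did not overlap, but the log2 fold change of 1.63 (SE 0.40) did not pass the test (adjusted p = 0.131, edgeR). Hnf4a differed by 0.73 (adjusted p = 0.241, edgeR) and Rxra, the partner of many nuclear receptors, by 0.47 (adjusted p = 0.343, edgeR). Onecut1, which encodes HNF6 and is named here after its values were seen, lay the other way, with 23.3, 10.9 and 14.7 normalized counts in p62+/+ and 1.90, 3.78 and 6.20 in p62S351E/+ mice. These did not overlap either, and its log2 fold change of -1.90 (SE 0.48) did not pass the test (adjusted p = 0.133, edgeR).

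None of 15 tested sex-biased liver genes was called, with 9 positive and a median of 0.49. Mup20, a male-biased urinary protein gene, had 12, 28 and 182 counts in p62+/+ and 9, 697 and 3 in p62S351E/+ mice, and Mup7 had 0, 19.15 and 311.6 against 15.62, 348.83 and 10.11, so both varied more within genotypes than between them. Cyp2b9, a female-biased P450 gene, differed by 1.46 (SE 0.45, adjusted p = 0.231, edgeR), in the direction opposite to Cyp2c69. The part of sex in the values of Cyp2c69 was not tested beyond the covariate given above.

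Many Cyp2c genes are expressed most around the central vein, and none of 9 tested pericentral genes was called, with a median of 0.10. Glul, glutamine synthetase, had 299.3, 296.5 and 272.1 normalized counts in p62+/+ and 38.1, 119.7 and 191.3 in p62S351E/+ mice. The genotypes did not overlap, but its log2 fold change of -1.30 (SE 0.50) did not pass the test (adjusted p = 0.312, edgeR). Glul is also abundant in astrocytes, and the highest of its p62S351E/+ values was in mouse 3, the p62S351E/+ library with 2268 brain marker counts, against 29 and 9 in mice 1 and 2 and 2092 to 2403 in p62+/+ mice. The part of brain RNA in the difference of Glul was not tested. Cyp1a2 differed by 0.79 (adjusted p = 0.188, edgeR).

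The genes most like the Cyp2c genes across the 6 mice were taken from 701 other genes with a mean of at least 50 normalized counts, by Pearson's r, which here follows the genotype difference as well as the spread within genotypes. For the sum of the 10 genes they were Apoe (r = 0.988), Phyh (0.986), Tdo2 (0.985), Pck1 (0.983) and Elovl2 (0.981). For Cyp2c37 they were Slc7a2 (r = 0.981), Abcc3 (0.978), Cyp2d26 (0.974), Entpd5 (0.974) and Rpl4 (0.973), of which Abcc3, an export pump of bile acids and conjugates, rose by a log2 fold change of 3.29 (adjusted p = 0.00051, edgeR). For Cyp2c69 they were Ppap2b (r = 0.97), Tmem30a (0.895), Ctnnb1 (0.893), Cyp3a11 (0.893) and Kif1b (0.873). Cyp3a11, the main CYP3A gene of mouse liver, had 304.7, 386.7 and 371.2 normalized counts in p62+/+ and 211.2, 169.5 and 130.5 in p62S351E/+ mice, and its log2 fold change of -1.06 did not pass the test (adjusted p = 0.109, edgeR).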

How the data were processed

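RNA was sequenced from the livers of 3 p62+/+ and 3 p62S351E/+ mice after ribosomal RNA depletion, as single reads of 75 bases. The authors trimmed reads with Trim Galore, aligned them to mm10 with STAR and deposited a table of expected counts per gene estimated by RSEM, with no versions given in the sources used here. The deposited counts, 8696712 to 10341622 per library, were rounded to whole numbers. Genes passing filterByExpr (minimum count 10) were scaled by TMM and fitted by genotype with edgeR 4.0.16 (quasi-likelihood, robust) in R 4.3.3, with Benjamini-Hochberg adjustment over 5945 genes. The thresholds were an adjusted p of 0.05 and a log2 fold change of 1. Normalized counts are counts divided by each library's effective size relative to the mean. The script was tested on simulated counts. DESeq2 1.42.0, limma 3.58.1 and other settings were alternatives. The genes and lists were chosen with earlier results of these data known. Named from each other list were the genes called and the 3 with the highest mean. Also named were every other Cyp2c gene and the 5 genes most correlated with the sum and with each called gene. Transcripts came from GENCODE for GRCm38, promoters from RefSeq, and identities from Biopython 1.88. Depth left Cyp2c38, at 1 to 3 counts, below what can be compared.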

Additional observations from a re-analysis of the deposited data

How the results depend on the processing

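No value changed sign where a gene had been called. Of all genes tested, those higher numbered 50 and became 90 with DESeq2, 122 with limma-voom, 79 with no filter, 27 with Xist as a covariate and 18 with a replicate block, and the genes lower numbered 5 and became 15, 13, 10, 2 and 1 in the same fits, 8 with the legacy quasi-likelihood fit and 29 where 10 counts were asked of every library. Leaving out one mouse at a time gave 16 to 333 higher and 1 to 975 lower, the highest of both without p62S351E/+ mouse 3. Among the Cyp2c genes the count higher was 1 and became 2 with DESeq2 and limma-voom (Cyp2c50 added) and 0 with the replicate block, and it ran from 0 (without p62+/+ mouse 1 or 3) to 4 (without p62S351E/+ mouse 3) with single mice left out. The count lower was 1, ran to 2 without p62S351E/+ mouse 3, and was 0 where 10 counts were asked of every library, since Cyp2c69 was not tested there. That filter also moved the summed log2 fold change of the 10 genes from 0.73 to 0.47, of all Cyp2c genes from 0.71 to 0.45 and of the trio from 1.40 to 1.15, and the Xist covariate moved the first and the second to 0.54 and 0.52, and the cause was not tested. The median of the tested genes, 0.42, ranged from 0.41 to 1.03 with single mice left out, fits that tested 8 or 9 of the 10 genes. It was 0.11 with the Xist covariate. With totals without the 3 dominant genes it was 0.26, a scaling that moved the median of all genes from -0.03 to -0.19. The sums by family were chosen after seeing the data. The block changed no other count of Cyp2c calls, and the mice share only a number, since deviations of mice with the same replicate number correlated at r = 0.0713, -0.0853 and 0.000353.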
